A study of Homo sapiens with 32 samples.

Results

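Proteins bound for the cell surface, the secretory granule or the lumen of an organelle enter the endoplasmic reticulum (ER) and leave it in coated vesicles. The genes described here encode that route: 49 genes for targeting, translocation, signal cleavage, ER export in COPII carriers, retrieval in COPI carriers, KDEL receptors and cargo receptors. They were taken from 60660 gene identifiers by matching the Ensembl identifiers of the count table to a list of symbols, a rule that uses no measured value, although the list was drawn up with earlier results of these data known. By role they fell into 8 genes of the signal recognition particle (SRP) and its receptor, 10 of the translocon and its associated TRAP complex, and 5 of signal peptidase. A further 11 belonged to COPII, 8 to COPI (counting ARFGAP3, a GTPase-activating protein for ARF), 3 to the KDEL receptors and 4 to the cargo receptors LMAN1, LMAN2, MCFD2 and SURF4.

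The cells were HCT116, an established line from a human colorectal carcinoma, and in every group they carried a doxycycline-inducible OsTIR1 transgene (Tet-OsTIR1-PURO). Parental cells were compared with single-cell clones in which Cas9 had been aimed at IGF2BP3 (clones A3, E4 and D12) or IGF2BP2 (clones B7, F6 and G6), both of which encode RNA-binding proteins of 1 family. Clones A3 and E4 shared a guide and D12 had another, and likewise B7 and F6 shared a guide and G6 had another. Cells received tunicamycin, which blocks N-linked glycosylation and brings on ER stress, or DMSO. For parental cells and IGF2BP3 knockout (KO) clones the labels give 5 µg/mL tunicamycin for 4 h, and they give neither value for the IGF2BP2 KO clones. Each treatment had 4 parental libraries (2 samples, 2 replicates each), 6 IGF2BP3 KO libraries and 6 IGF2BP2 KO libraries (3 clones, 2 replicates each). The labels do not say that replicates were separate cultures, so the p-values measure the spread between these libraries, which may be technical. The DMSO libraries of clone G6 carry titles that say control and a treatment field that says tunicamycin, and they were placed in DMSO by title.

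The 32 libraries held 16651438 to 24913021 counts each, with a median of 21441775.5. Levels are given as CPM, a gene's counts as a share of the library's total, with totals scaled by TMM over all libraries. HSPA5, the ER chaperone BiP and a standard sign of the unfolded protein response, lay between 776 and 1119 CPM in every DMSO library and between 7867 and 10960 CPM in every tunicamycin library, the G6 libraries included. IGF2BP3 lay between 18.8 and 50.5 CPM in its KO clones and between 69.6 and 83.6 CPM in parental libraries. The clones were not alike, with 18.8 to 30.1 CPM in A3 and E4 and 41.4 to 50.5 CPM in D12. Of the IGF2BP2 KO clones, G6 read 88.1 to 102 CPM for IGF2BP3, and B7 and F6 read 61.35 to 72.7 CPM. IGF2BP2 lay between 80.8 and 114 CPM in its KO clones and between 158 and 205 CPM in parental libraries. The targeted messages were therefore lower and not absent, and counts over the whole gene do not show whether protein was lost. Of 9 epithelial markers, 7 averaged above 1 CPM, as did 1 of 6 fibroblast markers and none of 7 leukocyte and endothelial markers. The number of genes with any count ran from 21259 to 23139 in replicate 1 and from 23423 to 24267 in replicate 2, so the main summary is also given within replicate numbers.

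A nascent secretory protein is first caught by SRP at its signal sequence and brought to the SRP receptor on the ER membrane. It is then threaded through the SEC61 channel with help from SEC62, SEC63 and TRAP, and signal peptidase removes the signal. Cargo leaves in COPII vesicles, whose coat is built by the GTPase SAR1, the inner layer SEC23 and SEC24 and the outer layer SEC13 and SEC31. COPI vesicles carry escaped ER proteins and recycling receptors back, with the KDEL receptors holding on to chaperones that end in a KDEL-type signal. The unfolded protein response is known to raise many genes of this route through the transcription factors ATF6 and XBP1.

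Most of the 49 genes rose in tunicamycin, in every genotype and by small amounts. All 49 passed the filter on low counts. In parental cells 34 were higher and 3 lower by edgeR's quasi-likelihood test (Benjamini-Hochberg adjusted p under 0.05 over all genes), against 12.5% of all tested genes called higher and 14.3% called lower. In IGF2BP3 KO clones 33 were higher and 4 lower, against 16.2% and 17.6% of all tested genes, and in IGF2BP2 KO clones 36 were higher and 4 lower, against 19.2% and 20.9%. The same 33 genes rose in all 3 genotypes, and SAR1A and SEC24B fell in all 3. Another 8 genes were called in none (SRP9, SRP14, SEC61A2, SEC62, SEC11A, COPZ1, KDELR1 and KDELR2), and 6 were called in 1 or 2 genotypes. With the replicate number as a block, SEC11A and KDELR2 were called higher in all 3 genotypes. None was called in opposite directions. When 1 sample and replicate number was left out of both treatments, the lower calls in parental cells were 0 without sample 1 replicate 1, 1 without sample 1 replicate 2 or sample 2 replicate 1, and 2 without sample 2 replicate 2. In IGF2BP3 KO 2 genes were lower when clone A3, D12 or E4 was left out. Bulk RNA cannot tell fewer cells of a kind from less RNA per cell.

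The median log2 fold change of the 49 genes was 0.28 in parental cells, 0.26 in IGF2BP3 KO and 0.26 in IGF2BP2 KO, while the median over all tested genes was -0.01 in each. Within replicate 1 alone the medians were 0.25, 0.22 and 0.19, and within replicate 2 alone 0.29, 0.27 and 0.32. Taken line by line (2 parental samples and 6 clones), 36 genes were up in all 8 lines, 4 were down in all 8 and 9 had mixed signs. Library values of the treatments did not overlap for 32 genes in parental cells, 30 with tunicamycin above DMSO and 2 below, against 12.6% and 15.2% of all tested genes. In IGF2BP3 KO 24 were above and 2 below, against 8.12% and 8.48%, and in IGF2BP2 KO 26 were above and 1 below, against 7.9% and 8.7%. The KO groups held 6 libraries a treatment and the parental group 4, which makes full separation harder in the KO groups, so these counts are not compared between genotypes.

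The groups differed in size of response. Cargo receptors had the largest median log2 fold change of the 7 groups in each genotype (0.58 in parental cells, 0.68 in IGF2BP3 KO and 0.66 in IGF2BP2 KO). Translocon and TRAP genes followed at 0.44, 0.45 and 0.42. Signal peptidase stood at 0.37, 0.33 and 0.36, and COPI at 0.33, 0.37 and 0.33. SRP genes were lower at 0.21, 0.17 and 0.23, as were COPII genes at 0.18, 0.18 and 0.20, and the KDEL receptors stood at 0.02, 0.03 and -0.03. The order of the middle groups rests on few genes and small gaps, and it carries no test.

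**Figure D1:**
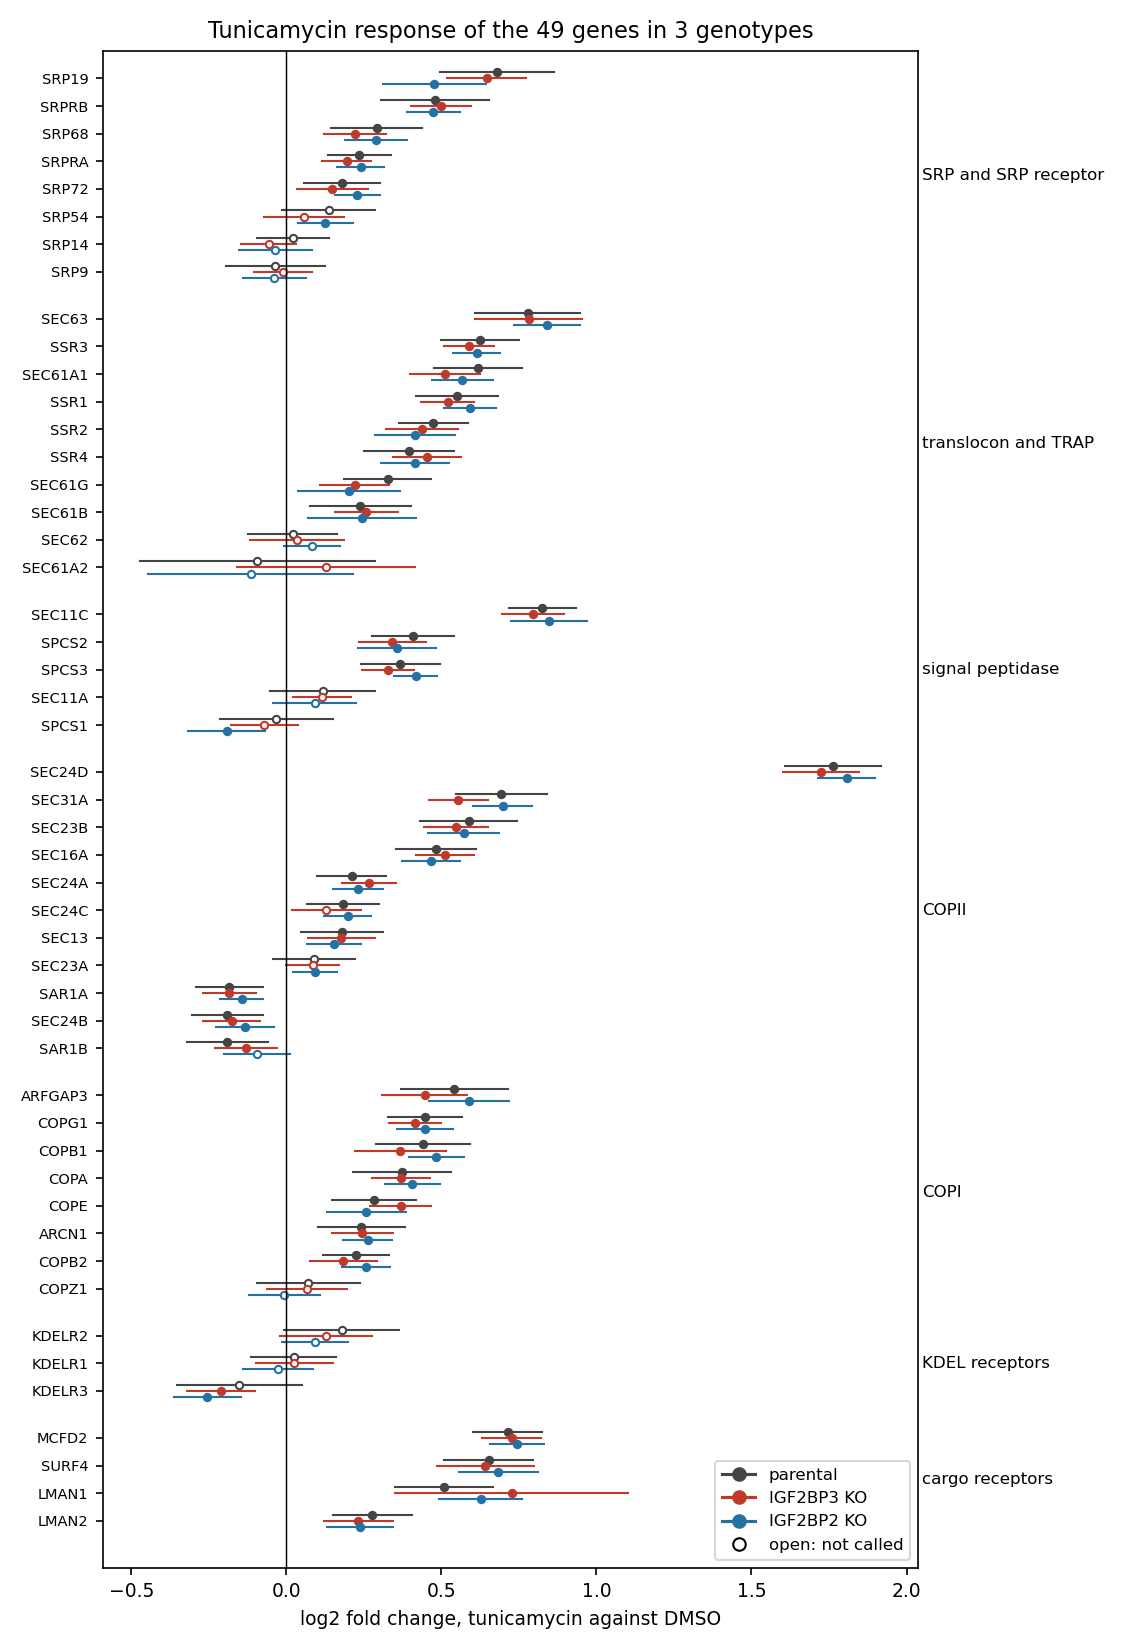
Log2 fold change in tunicamycin against DMSO (x axis) for each of the 49 genes, by functional group, with 95% intervals; colours are genotypes, and open points are genes not called at adjusted p under 0.05. SEC24D stands alone at 1.72 to 1.81, and most other genes lie between 0 and 0.85. SAR1A, SAR1B, SEC24B, KDELR3 and SPCS1 are among those to the left of 0 in each genotype.

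Since so many of these genes moved together, their promoters were read for letters that ATF6 and XBP1 are known to bind. RefSeq's promoter table (GRCh38.p14, 250 bases before to 50 after each start) held 45 of the 49 genes, all but SRPRA, SPCS1, SEC24D and KDELR2. The UPRE core TGACGTG, searched on both strands, lay in the windows of 14 of the 45 genes (31.1%), against 2.4% of all 27305 genes in the table and 1.97% of its 35116 windows of that length. Of all genes tested in parental cells and present in the table, 3.32% held it. The share was 5.89% among those called higher, 1.91% among those called lower and 3.13% among those not called. Among those called higher with a log2 fold change above 1 it was 5.36%. The shorter XBP1 core ACGTG, which lies inside TGACGTG, was in 30 of 45 (66.7%) against 24.9% of all genes. ERSE, the sequence CCAAT followed after 9 bases by CCACG, was in 0 of 45 and in 0.0916% of all genes, and ERSE-II, ATTGG followed after 1 base by CCACG, was in 0 of 45 and in 0.0696%. The stretches that follow show the core in its setting for 5 genes that rose in every genotype and for SEC62, which was called in none, and KDELR3, which was called higher in none. Capitals mark the core, which reads CACGTCA where it lies on the other strand.
SRP19, chr5:112861165-112861193 (+): agtcttcatgcCACGTCAgagactagaga
SSR3, chr3:156554148-156554176 (-): ctgataacagcCACGTCAgcaaggaaact
SEC13, chr3:10321238-10321266 (-): ctctggtctcgCACGTCActggaggatag
SEC24A, chr5:134648595-134648623 (+): gtgagagtcggTGACGTGgcggcgaggcc
COPB1, chr11:14499841-14499869 (-): ccacccccttcCACGTCAgccaaggactc
SEC62, chr3:169966780-169966806 (+): cctcctcgctcCACGTCAgagggaacc
KDELR3, chr22:38468040-38468068 (+): gccgccctggcCACGTCAccgcccggcca
The core stood in 4 of 10 translocon and TRAP genes (SEC61A1, SEC62, SSR3 and SSR4), 4 of 8 COPI genes (COPA, COPB1, COPB2 and COPE) and 4 of the 10 COPII genes in the table (SEC13, SEC16A, SEC23A and SEC24A). It stood in 1 SRP gene, SRP19, in 1 KDEL receptor gene, KDELR3, and in no signal peptidase or cargo receptor gene of the table. The 14 genes with the core had a median parental log2 fold change of 0.33, with 11 called higher and 0 lower, and the 31 without had 0.29, with 21 higher and 3 lower. A match is a stretch of letters in a window and no measurement of binding.

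In the targeting step SRP19 and SRPRB rose most, and the Alu-domain proteins were not called. SRP, which is built on 7SL RNA, and its receptor had 5 of 8 genes higher in parental cells, 5 in IGF2BP3 KO and 6 in IGF2BP2 KO, and none lower. SRP19, which binds 7SL RNA and readies the particle for SRP54, stood at 11.7, 11.2, 11.7 and 12.5 CPM in the 4 parental DMSO libraries and at 20.8, 19.5, 17.3 and 17.6 CPM in tunicamycin. Every tunicamycin library was above every DMSO library, in the KO clones as well, where DMSO values ran from 10.8 to 14.0 CPM and tunicamycin values from 16.2 to 19.9 CPM. SRP19 rose by 0.68 ± 0.08 on the log2 scale (SE, adjusted p = 2.17e-04) in parental cells, 0.65 ± 0.06 (adjusted p = 9.29e-07) in IGF2BP3 KO and 0.48 ± 0.08 (adjusted p = 1.83e-04) in IGF2BP2 KO. SRP19 shares 368 exon bases with REEP5 on the opposite strand, which averaged 101 CPM, and whether counting used strand is not given in the sources used here. REEP5 itself had a log2 fold change of -0.10 and was not called.

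SRPRB, the membrane-anchored subunit of the receptor, stood at 102, 83.2, 101 and 79.7 CPM in parental DMSO and at 136, 119, 134 and 119 CPM in parental tunicamycin. Within each sample and replicate number the tunicamycin library was the higher, and the treatments did not overlap. The log2 fold changes were 0.48, 0.50 and 0.47 in parental, IGF2BP3 KO and IGF2BP2 KO cells. SRPRA, the subunit that docks SRP54, rose by 0.24, 0.20 and 0.24. SRP68 and SRP72, which form a dimer on 7SL RNA, rose by 0.29 and 0.18 in parental cells. In IGF2BP3 KO they rose by 0.22 and 0.15 and in IGF2BP2 KO by 0.29 and 0.23. The SRP72 calls were lost in 4 of 13 alternative analyses in parental cells and 4 of 12 in IGF2BP3 KO. In IGF2BP3 KO the SRP72 response was -0.00067 within replicate 1 and 0.27 within replicate 2. SRP54, the GTPase that reads the signal sequence, was called in IGF2BP2 KO alone (0.13, adjusted p = 0.0248), and its estimates of 0.14 in parental cells and 0.06 in IGF2BP3 KO were not called, nor was the difference between genotypes by the interaction tests. SRP9 and SRP14, which pair on the Alu end of 7SL RNA, were not called in any genotype, with all 6 estimates between -0.06 and 0.02 and all intervals between -0.19 and 0.14.

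At the membrane the SEC61 channel, SEC63 and the TRAP complex were called higher in each genotype, while SEC62 and the second alpha subunit did not pass the test. Of 10 genes, 8 were higher in each genotype, the same 8, and none was lower. SEC61A1, the pore-forming alpha subunit, stood at 346, 302, 355 and 295 CPM in parental DMSO and at 521, 474, 528 and 463 CPM in parental tunicamycin. The ranges were 280 to 382 CPM in DMSO and 443 to 552 CPM in tunicamycin over both KO genotypes, so no library of one treatment reached the other. SEC61A1 rose by 0.62 ± 0.06 (SE, adjusted p = 7.04e-05) in parental cells, 0.51 in IGF2BP3 KO and 0.57 in IGF2BP2 KO. The small subunits SEC61B and SEC61G moved less, by 0.24 and 0.33 in parental cells, 0.26 and 0.22 in IGF2BP3 KO and 0.25 and 0.20 in IGF2BP2 KO. In clone G6 their mean responses were 0.03 and 0.04, with replicates 1 and 2 moving in opposite directions. SEC61B went from 55.49 to 47.02 CPM in G6 replicate 1 and from 44.45 to 54.41 CPM in replicate 2. SEC61G went from 71.2 to 61.85 CPM and from 58.5 to 71.11 CPM. The SEC61B libraries of the treatments overlapped in every genotype. The IGF2BP2 KO calls were lost in 2 of 13 (SEC61B) and 3 of 13 (SEC61G) alternative analyses. The parental SEC61B call was lost in 4 of 13.

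SEC63, a J-domain protein that brings BiP to the channel, had the largest change of the translocon genes. It stood at 66.9, 59.8, 60.6 and 60.6 CPM in parental DMSO and at 111, 117, 89.0 and 107 CPM in parental tunicamycin. All 8 lines rose, by 0.59 (clone A3) to 0.89 (clone E4) on the log2 scale. SEC62, its partner in the membrane, had estimates of 0.02, 0.04 and 0.08 and was called in no genotype. The TRAP subunits SSR1, SSR2, SSR3 and SSR4, which assist the entry of some signal sequences, rose by 0.55, 0.47, 0.62 and 0.40 in parental cells, with 0.52, 0.44, 0.59 and 0.45 in IGF2BP3 KO and 0.59, 0.41, 0.61 and 0.42 in IGF2BP2 KO.

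SEC61A2, a less studied copy of the alpha subunit, was scarce and did not pass the test in any genotype. Its parental DMSO libraries read 7.32, 9.75, 6.94 and 9.84 CPM and its parental tunicamycin libraries 7.21, 8.28, 6.87 and 9.25 CPM. In both treatments the replicate 2 libraries of the parental samples were above the replicate 1 libraries. The log2 fold changes were -0.09 (95% interval -0.47 to 0.29), 0.13 (-0.16 to 0.41) and -0.12 (-0.45 to 0.22), the widest intervals of the channel genes. Per kilobase of exon, the median parental DMSO level was 69.0 CPM per kb for SEC61A1 and 2.18 CPM per kb for SEC61A2. SEC61A2 shares 387 exon bases with NUDT5 on the opposite strand, which averaged 88.2 CPM, so its reads are uncertain where strand was not used.

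Signal peptidase split into a catalytic subunit that rose strongly and another that moved little. SEC11C stood at 31.5, 29.5, 29.1 and 27.7 CPM in the parental DMSO libraries and at 52.5, 52.6, 52.3 and 50.5 CPM in tunicamycin. The KO clones read 25.4 to 33.7 CPM in DMSO and 46.5 to 56.3 CPM in tunicamycin, with no overlap. SEC11C rose by 0.83 ± 0.05 (SE, adjusted p = 1.71e-06), 0.80 ± 0.05 and 0.85 ± 0.06 in the 3 genotypes, the largest estimates among the 49 genes after SEC24D. SEC11A, the alternative catalytic subunit, read 131, 107, 128 and 111 CPM in parental DMSO and 137, 115, 142 and 122 CPM in tunicamycin, with overlapping ranges. It was not called (0.12, 0.11 and 0.09, adjusted p = 0.308, 0.0575 and 0.274). With the replicate block it was called higher in each genotype, by 0.12, 0.11 and 0.09 (adjusted p = 0.0151, 0.0239 and 0.0319).

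The accessory subunits SPCS2 and SPCS3 rose in each genotype. SPCS2 rose by 0.41, 0.34 and 0.36, and SPCS3, which is essential for cleavage, by 0.37, 0.33 and 0.42. SPCS1 was called lower in IGF2BP2 KO alone, where DMSO libraries ran from 73.0 to 88.9 CPM (median 79.3) and tunicamycin libraries from 64.5 to 76.2 CPM (median 66.9). That change was -0.19 ± 0.06 (SE, adjusted p = 0.0155), beside -0.03 in parental cells and -0.07 in IGF2BP3 KO. Without clone G6, whose control libraries have the conflicting labels, it was -0.16 and not called (adjusted p = 0.0993). SPCS1 shares 2698 exon bases with NEK4 on the opposite strand, which averaged 58.4 CPM.

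COPII genes gave the largest rise, and several of them fell. In parental cells 7 of 11 were higher and 3 lower, in IGF2BP3 KO 6 and 3, and in IGF2BP2 KO 8 and 2. SEC24D (chr4:118722823-118838683, minus strand), 1 of 4 SEC24 proteins that select cargo for the vesicle, read 47.8, 46.9, 52.2 and 43.6 CPM in the parental DMSO libraries and 167, 178, 148 and 153 CPM in tunicamycin. In IGF2BP3 KO it ran from 36.0 to 44.2 CPM (median 40.8) in DMSO and from 121 to 144 CPM (median 132) in tunicamycin, and in IGF2BP2 KO from 40.3 to 45.5 CPM (median 42.8) and from 133 to 159 CPM (median 150). The treatments were far apart in each genotype, with the lowest tunicamycin library well above the highest DMSO library. SEC24D rose 3.39-fold in parental cells and 3.3-fold and 3.5-fold in the KO groups, or 1.76 ± 0.07 (adjusted p = 1.12e-07), 1.72 ± 0.06 (adjusted p = 1.81e-11) and 1.81 ± 0.04 (adjusted p = 2.76e-13) on the log2 scale by edgeR's quasi-likelihood test. Among the 8 lines the response ran from 1.61 in clone D12 to 1.87 in clone B7.

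The other SEC24 genes moved little, and one of them moved down. SEC24B read 87.6, 80.8, 94.1 and 85.1 CPM in parental DMSO and 78.3, 76.6, 75.2 and 73.4 CPM in parental tunicamycin, all 4 below the DMSO libraries. In the KO clones the ranges touched, with 81.5 to 96.7 CPM in DMSO and 74.5 to 87.2 CPM in tunicamycin. SEC24B fell by 0.19, 0.18 and 0.13 on the log2 scale (adjusted p = 0.0199, 0.00518 and 0.0232). These calls were lost in 5 of 13 alternative analyses in parental cells, 1 of 12 in IGF2BP3 KO and 3 of 13 in IGF2BP2 KO. SEC24A rose by 0.21, 0.27 and 0.23, and SEC24C by 0.18 and 0.20 in parental and IGF2BP2 KO cells. In IGF2BP3 KO the SEC24C change was 0.13 (adjusted p = 0.0735, and 0.0430 with the replicate block). The parental calls were lost in 4 of 13 (SEC24A) and 5 of 13 (SEC24C) alternative analyses. The KO calls of these 2 genes were lost in none.

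The make-up of the SEC24 pool therefore differed between treatments when levels were set per kilobase of exon. SEC24D made up a median of 11.8% of the summed SEC24 CPM per kb in parental DMSO and 30.5% in tunicamycin, 9.71% and 25.8% in IGF2BP3 KO, and 10.5% and 28.7% in IGF2BP2 KO. SEC24B, the most abundant of the 4 by this measure in DMSO, went from 40.6% to 27.6% in parental cells. SEC24A went from 21.2% to 18.6% and SEC24C from 26.4% to 23.2%, although their own levels rose. In the KO groups SEC24B kept the largest median share by this measure in tunicamycin, 30.0% in IGF2BP3 KO and 29.2% in IGF2BP2 KO. In parental cells SEC24D's median share was the larger. This order depends on the length used, the union of all annotated exons (9920 bases for SEC24D and 5219 for SEC24B). In plain CPM SEC24D was above SEC24B in every tunicamycin library of every genotype. The response of SEC24D was not called different between genotypes.

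**Figure D2:**
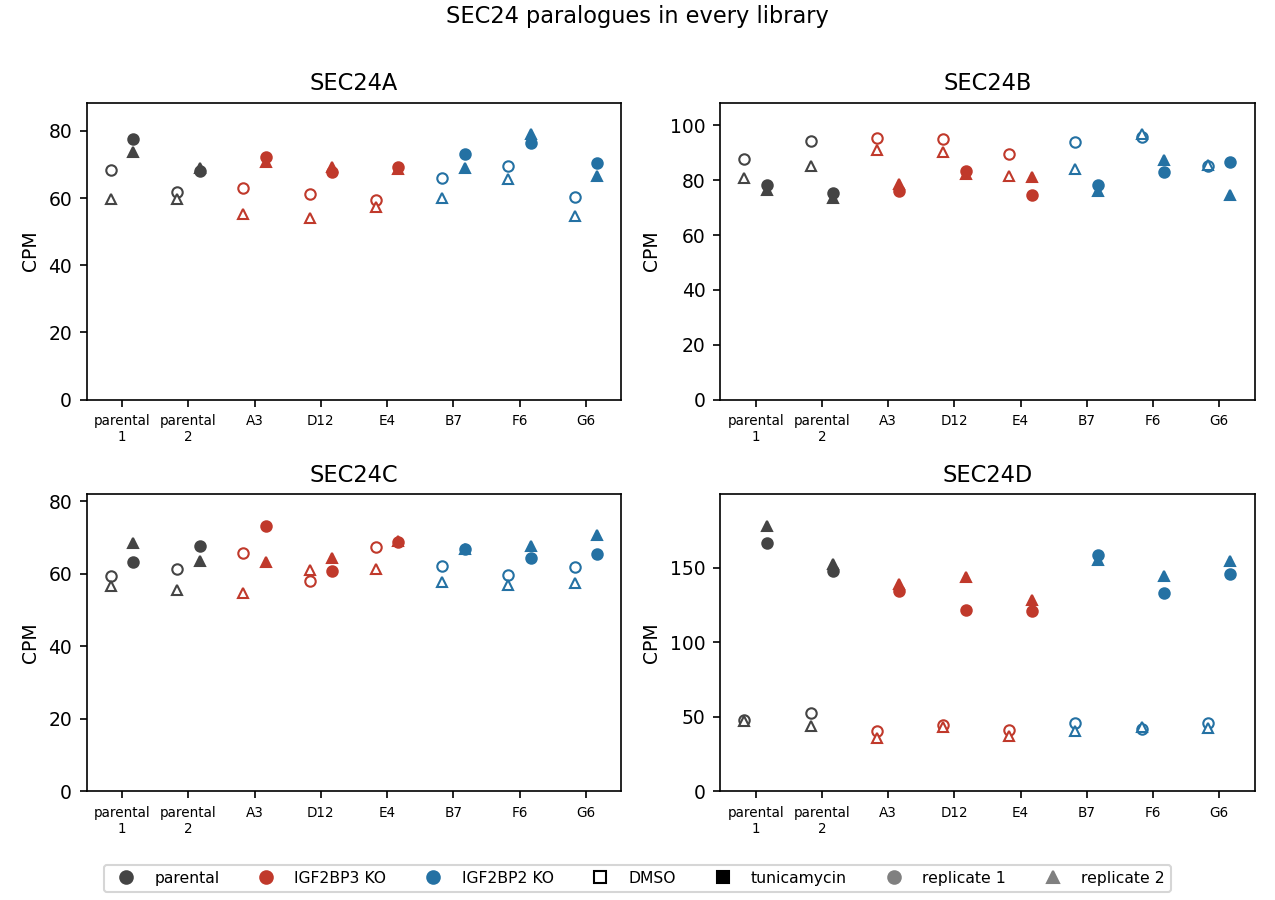
CPM of SEC24A, SEC24B, SEC24C and SEC24D (y axes, each from 0) in all 32 libraries, by parental sample or clone (x axis); open symbols are DMSO, filled symbols tunicamycin, circles replicate 1 and triangles replicate 2. SEC24D goes from 36.0 to 52.2 CPM in DMSO to 121 to 178 CPM in tunicamycin in every line, while most SEC24B tunicamycin libraries lie below their DMSO partners.

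Among the other coat genes the larger changes fell on SEC31A, SEC23B and SEC16A. SEC31A, the outer-layer subunit, read 92.3, 93.7, 93.6 and 89.4 CPM in parental DMSO and 153, 162, 131 and 150 CPM in tunicamycin. No tunicamycin library of any genotype was as low as its DMSO libraries, and the gene rose by 0.69, 0.55 and 0.70. SEC31A shares 482 exon bases on the same strand with THAP9-AS1, which averaged 91.9 CPM and had a log2 fold change of 1.23 in parental cells, so part of the counts in that stretch could be either gene's. SEC23B, an inner-layer subunit that activates SAR1's GTPase, read 161, 136, 167 and 138 CPM and then 248, 220, 228 and 207 CPM in the parental libraries. It rose by 0.59, 0.55 and 0.57, whereas its paralogue SEC23A had 0.09, 0.08 and 0.09 and was called in IGF2BP2 KO alone, a call lost in 7 of 13 alternative analyses. With the replicate block SEC23A was called in IGF2BP3 KO too (adjusted p = 0.0439). SEC16A, the scaffold of ER exit sites, rose by 0.48, 0.51 and 0.47, and SEC13, the partner of SEC31A, by 0.18, 0.18 and 0.15. The SEC13 calls were lost in 5 of 13 alternative analyses in parental cells, 2 of 12 in IGF2BP3 KO and 2 of 13 in IGF2BP2 KO.

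The GTPase that starts the coat went the other way. SAR1A read 151, 135, 147 and 134 CPM in the parental DMSO libraries and 129, 118, 128 and 122 CPM in tunicamycin. In IGF2BP3 KO it ran from 134 to 143 CPM and then 115 to 124 CPM, and in IGF2BP2 KO from 132 to 148 CPM and then 121 to 128 CPM, so every tunicamycin library was below every DMSO library of its genotype. SAR1A fell by 0.18, 0.18 and 0.14 on the log2 scale (adjusted p = 0.0176, 0.00218 and 0.00228). The parental SAR1A call was lost in 3 of 13 alternative analyses, and the KO calls in none. SAR1B fell by 0.19 in parental cells (adjusted p = 0.0375) and by 0.13 in IGF2BP3 KO (adjusted p = 0.0448), and had -0.09 (adjusted p = 0.155) in IGF2BP2 KO. The SAR1B calls were lost in 6 of 13 alternative analyses in parental cells and in 9 of 12 in IGF2BP3 KO. SAR1B and SEC24A share 385 exon bases on opposite strands.

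In the COPI group 7 of 8 genes were higher in each genotype and none lower, by amounts from 0.18 to 0.59. The 7 include the GTPase-activating protein ARFGAP3. COPG1, the gamma subunit, read 215, 192, 227 and 195 CPM in parental DMSO and 285, 279, 295 and 266 CPM in parental tunicamycin. In IGF2BP3 KO it went from a median of 202 CPM to 267 CPM and in IGF2BP2 KO from 195 to 257 CPM, with no overlap in either. COPG1 rose by 0.45, 0.41 and 0.45, COPB1 by 0.44, 0.37 and 0.48, and COPA by 0.37, 0.37 and 0.41. COPE, ARCN1 and COPB2 rose by 0.28, 0.24 and 0.22 in parental cells, 0.37, 0.24 and 0.18 in IGF2BP3 KO and 0.26, 0.26 and 0.26 in IGF2BP2 KO. COPZ1, the zeta subunit, was the exception, with 243, 202, 244 and 203 CPM in parental DMSO, 247, 212, 255.7 and 220 CPM in tunicamycin and changes of 0.07, 0.07 and -0.01 that were not called. ARFGAP3, which promotes GTP hydrolysis on ARF1, rose most in this group, by 0.54, 0.45 and 0.59, and shares 155 exon bases on the same strand with PACSIN2 (log2 fold change 0.55 in parental cells).

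The KDEL receptors stood apart, since none of the 3 was called higher in the reported fits. KDELR1 read 178, 155, 181 and 157 CPM in parental DMSO and 173, 156, 188 and 163 CPM in tunicamycin, a change of 0.02 (95% interval -0.11 to 0.16). KDELR2 read 171, 147, 173 and 150 CPM and then 200, 163, 201 and 158 CPM, with each library above its DMSO partner and ranges that overlapped. Its changes were 0.18 (-0.01 to 0.36), 0.13 (-0.02 to 0.28) and 0.09 (-0.01 to 0.20), and they did not pass the test (adjusted p = 0.151, 0.182 and 0.154). KDELR2 did pass edgeR's quasi-likelihood test with the replicate block in each genotype (adjusted p = 0.00161, 0.0464 and 0.0157). It also passed that test in each genotype with counts summed per line (adjusted p = 0.00542, 0.00638 and 0.0237). All 8 lines had a positive KDELR2 response, from 0.007 to 0.19. KDELR3 read 25.4, 21.6, 27.7 and 21.2 CPM in parental DMSO and 20.8, 21.4, 24.1 and 19.6 CPM in tunicamycin. It fell by 0.21 in IGF2BP3 KO (adjusted p = 0.00471), where 18.6 to 20.8 CPM in tunicamycin lay below 21.0 to 25.2 CPM in DMSO, and by 0.25 in IGF2BP2 KO (adjusted p = 9.5e-04), where ranges overlapped. The parental change of -0.15 ± 0.09 was not called, and the difference between genotypes was not called either. All 8 lines had a negative KDELR3 response, from -0.35 to -0.15. Per kilobase of exon, KDELR1 was the most abundant in parental DMSO with a median of 74.4 CPM per kb, followed by KDELR2 with 40.2 and KDELR3 with 12.2. KDELR3 shares 8 exon bases with DDX17 on the opposite strand. KDELR2 shares 376 exon bases on the same strand with DAGLB, which averaged 27.4 CPM. DAGLB had a log2 fold change of 0.52 in parental cells, so part of the counts in that stretch could be either gene's.

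Cargo receptors rose in each genotype, all 4 of 4. MCFD2, a soluble protein that works with LMAN1 to carry coagulation factors V and VIII out of the ER, read 131, 117, 127 and 112 CPM in parental DMSO and 213, 196, 196 and 190 CPM in tunicamycin. It rose by 0.71 ± 0.05 (adjusted p = 5.71e-06), 0.73 and 0.74, with no overlap in any genotype. SURF4, a membrane receptor for soluble cargo, rose by 0.65, 0.64 and 0.68, and LMAN2 (VIP36), a lectin, by 0.28, 0.23 and 0.24.

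LMAN1 (ERGIC-53), the lectin that MCFD2 partners, differed between clones of 1 genotype. Its parental libraries read 150, 134, 154 and 138 CPM in DMSO and 212, 221, 179 and 205 CPM in tunicamycin. Clones A3, E4, B7 and F6 read 136 to 179 CPM in DMSO and 191 to 239 CPM in tunicamycin. Clone D12 read 14.3 and 17.7 CPM in DMSO and 38.7 and 57.1 CPM in tunicamycin, and clone G6 read 58.2 and 60.1 CPM and then 108 and 110 CPM. Both replicates of each clone gave the low values in both treatments, and each of these clones is the only one of its genotype made with its guide.

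The LMAN1 response was also largest in those clones on the log2 scale, 1.56 in D12 and 0.88 in G6, beside 0.30 to 0.61 in the other 6 lines. The fitted change was 0.51 ± 0.07 in parental cells, 0.73 ± 0.18 in IGF2BP3 KO and 0.63 ± 0.06 in IGF2BP2 KO. Without clone D12 it was 0.39 (adjusted p = 0.0054) in IGF2BP3 KO, and without clone G6 it was 0.50 in IGF2BP2 KO. MCFD2 was not low in these clones, at 129 and 114 CPM in D12 and 133 and 118 CPM in G6 in DMSO. Against parental cells LMAN1 was not called, with -0.37 (95% interval -1.50 to 0.75) in IGF2BP3 KO in DMSO, and that estimate was 0.14 without D12. In IGF2BP2 KO in DMSO it was -0.30, and 0.02 without G6. Guide, clone and LMAN1 level cannot be told apart here.

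**Figure D3:**
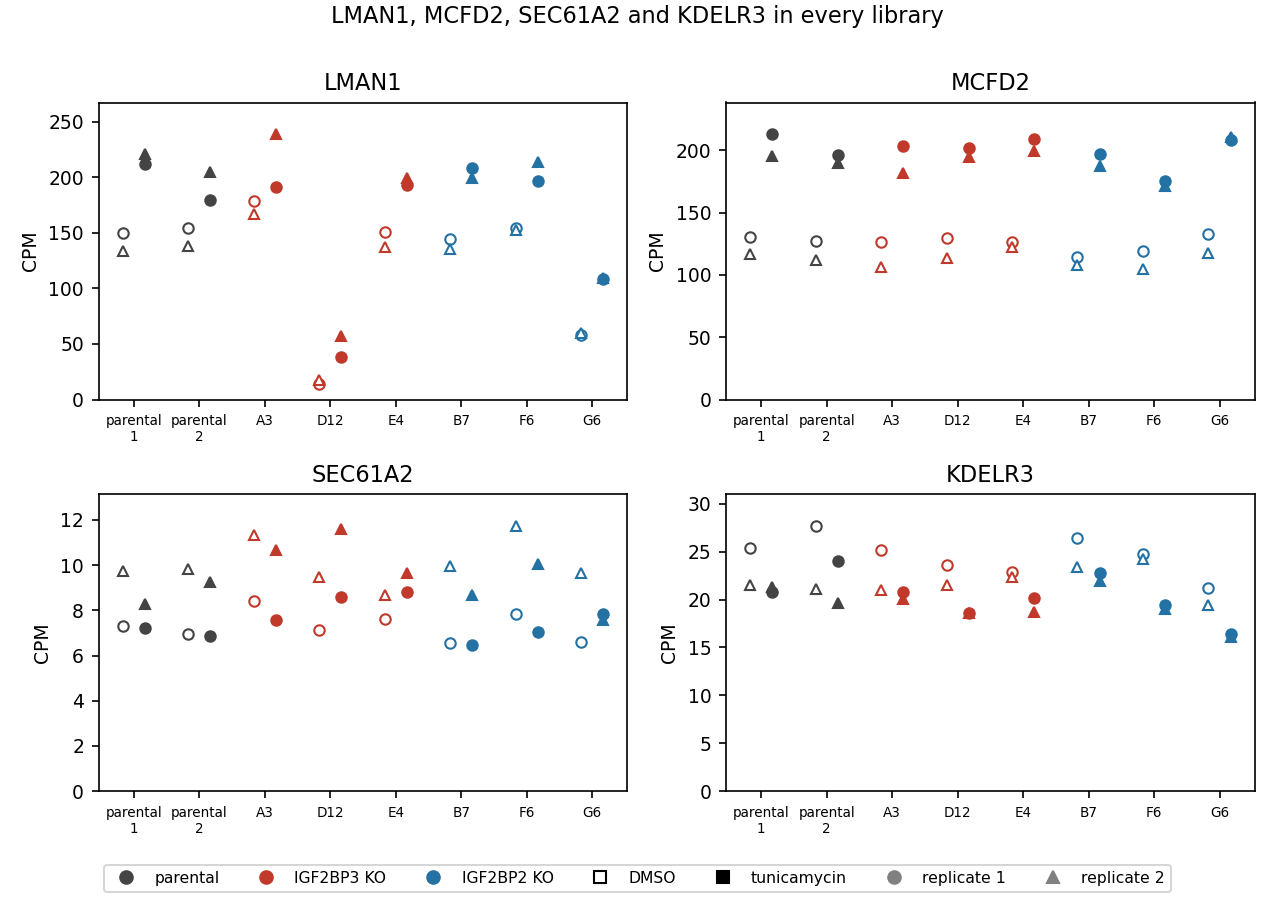
CPM of LMAN1, MCFD2, SEC61A2 and KDELR3 (y axes, each from 0) in all 32 libraries, by parental sample or clone (x axis); open symbols are DMSO, filled symbols tunicamycin, circles replicate 1 and triangles replicate 2. LMAN1 is low in clones D12 (14.3 to 57.1 CPM) and G6 (58.2 to 110 CPM) in both treatments, where MCFD2 is not.

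Paralogues of 1 family were then compared within lines, where the ratio of both genes in a library does not depend on how libraries are scaled. In each of the 8 lines the response of a gene (mean log2 CPM in tunicamycin minus mean in DMSO) was set against that of its paralogue, for 13 pairs in 6 families. An exact two-sided sign-flip permutation test over lines was used, whose smallest possible p is 0.00781, and p-values were adjusted over the 13 pairs. The difference had 1 sign in 8 of 8 lines for 12 pairs, each with exact p = 0.00781 and adjusted p = 0.00846. SEC24D exceeded SEC24A, SEC24B and SEC24C by 1.52, 1.93 and 1.60 on the log2 scale (SD over lines 0.11, 0.12 and 0.08). SEC24A exceeded SEC24B by 0.40 ± 0.07 (SD, n = 8 lines, exact p = 0.00781), and SEC24B stood 0.33 below SEC24C. SEC24A exceeded SEC24C by only 0.07, with lines from 0.001 to 0.18, and in replicate 2 libraries alone that pair did not pass (adjusted p = 0.0938).

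SEC11C exceeded SEC11A by 0.71 (lines from 0.62 to 0.85), SEC23B exceeded SEC23A by 0.48 (0.41 to 0.58), and SEC61A1 exceeded SEC61A2 by 0.57 (0.19 to 0.76). As shares of the family's CPM per kb, SEC11C went from a median of 23.8% to 33.7% in parental cells and SEC23B from 67.1% to 74.6%. Among KDEL receptors the order was the same in all 8 lines, with KDELR2 above KDELR1 by 0.12 and KDELR1 above KDELR3 by 0.22. SAR1A and SAR1B were the pair that did not separate, with a mean difference of -0.04 (lines from -0.15 to 0.04, exact p = 0.242). Lines of 1 genotype and of 1 guide share a history, so they are not fully independent.

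**Figure D4:**
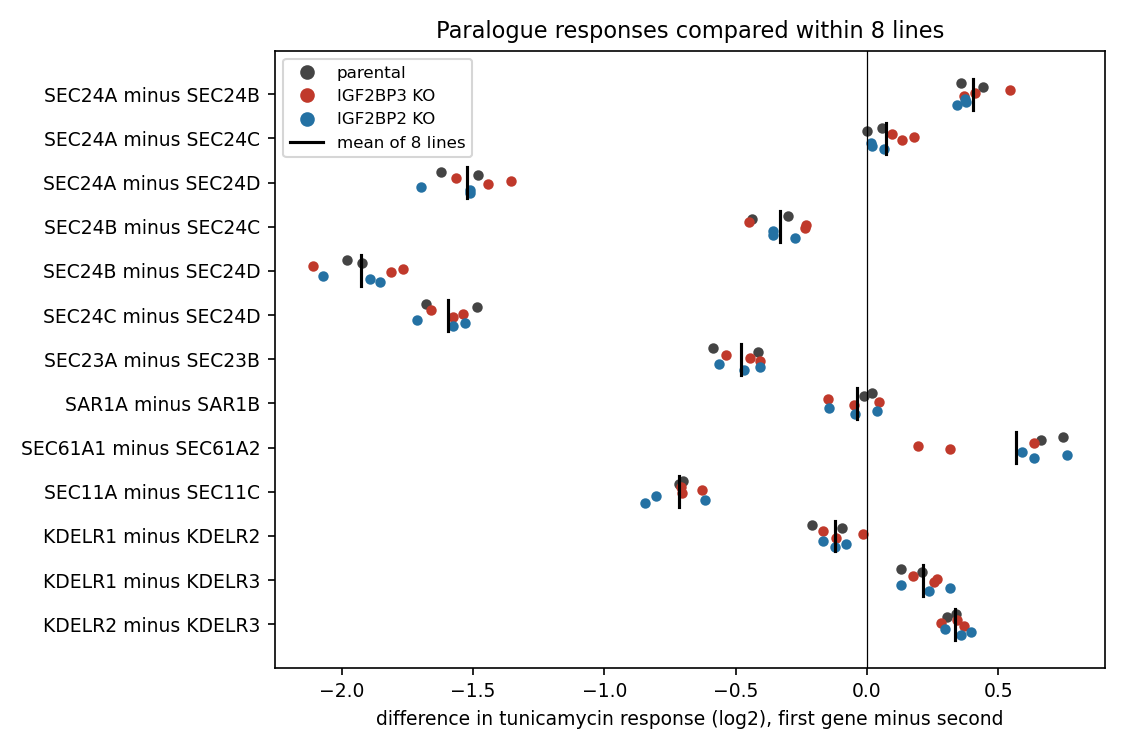
Difference in tunicamycin response between paralogues (x axis, log2, first gene minus second) for the 13 pairs, with a point for each of the 8 lines coloured by genotype and a bar at their mean. SEC24D exceeds each other SEC24 gene by about the same amount in every line, while the SAR1A and SAR1B points straddle 0.

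The interaction tests of edgeR's quasi-likelihood fit called no difference between genotypes in the tunicamycin response of the 49 genes. The count was 0 for IGF2BP3 KO against parental cells, 0 for IGF2BP2 KO against parental cells and 0 for IGF2BP3 KO against IGF2BP2 KO, where 0%, 0% and 0% of all tested genes were called. At an unadjusted p under 0.05 the counts were 0, 0 and 1, and DESeq2 called 0 in each. The 1 gene was SEC31A, 0.14 lower on the log2 scale in the response of IGF2BP3 KO than in that of IGF2BP2 KO (unadjusted p = 0.0373, adjusted p = 1.00). The comparisons with parental cells share the parental libraries.

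The intervals show what size of difference could have been missed given the spread between libraries. The interaction fits took each library as a unit and had no term for differences in response between clones of a genotype. The intervals may therefore be too narrow as limits on an effect of the knockout itself. The differences of IGF2BP3 KO from parental cells ran from -0.13 to 0.23 over the 49 genes with a median of -0.02, and the median 95% interval reached 0.17 to either side. Those of IGF2BP2 KO ran from -0.20 to 0.12 with a median of 0.00 and a median interval of 0.18 to either side. For SEC24D the difference was -0.03 (95% interval -0.21 to 0.15) and 0.05 (-0.12 to 0.21), small beside its response of 1.76. SRP19 had the lowest estimate in IGF2BP2 KO, -0.20 (-0.43 to 0.03). Wide intervals were those of SEC61A2 in both comparisons (0.23, -0.25 to 0.70, in IGF2BP3 KO and -0.02, -0.52 to 0.48, in IGF2BP2 KO) and of LMAN1 in IGF2BP3 KO (0.22, -0.27 to 0.72). Without clone D12 the LMAN1 difference was -0.12.

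**Figure D5:**
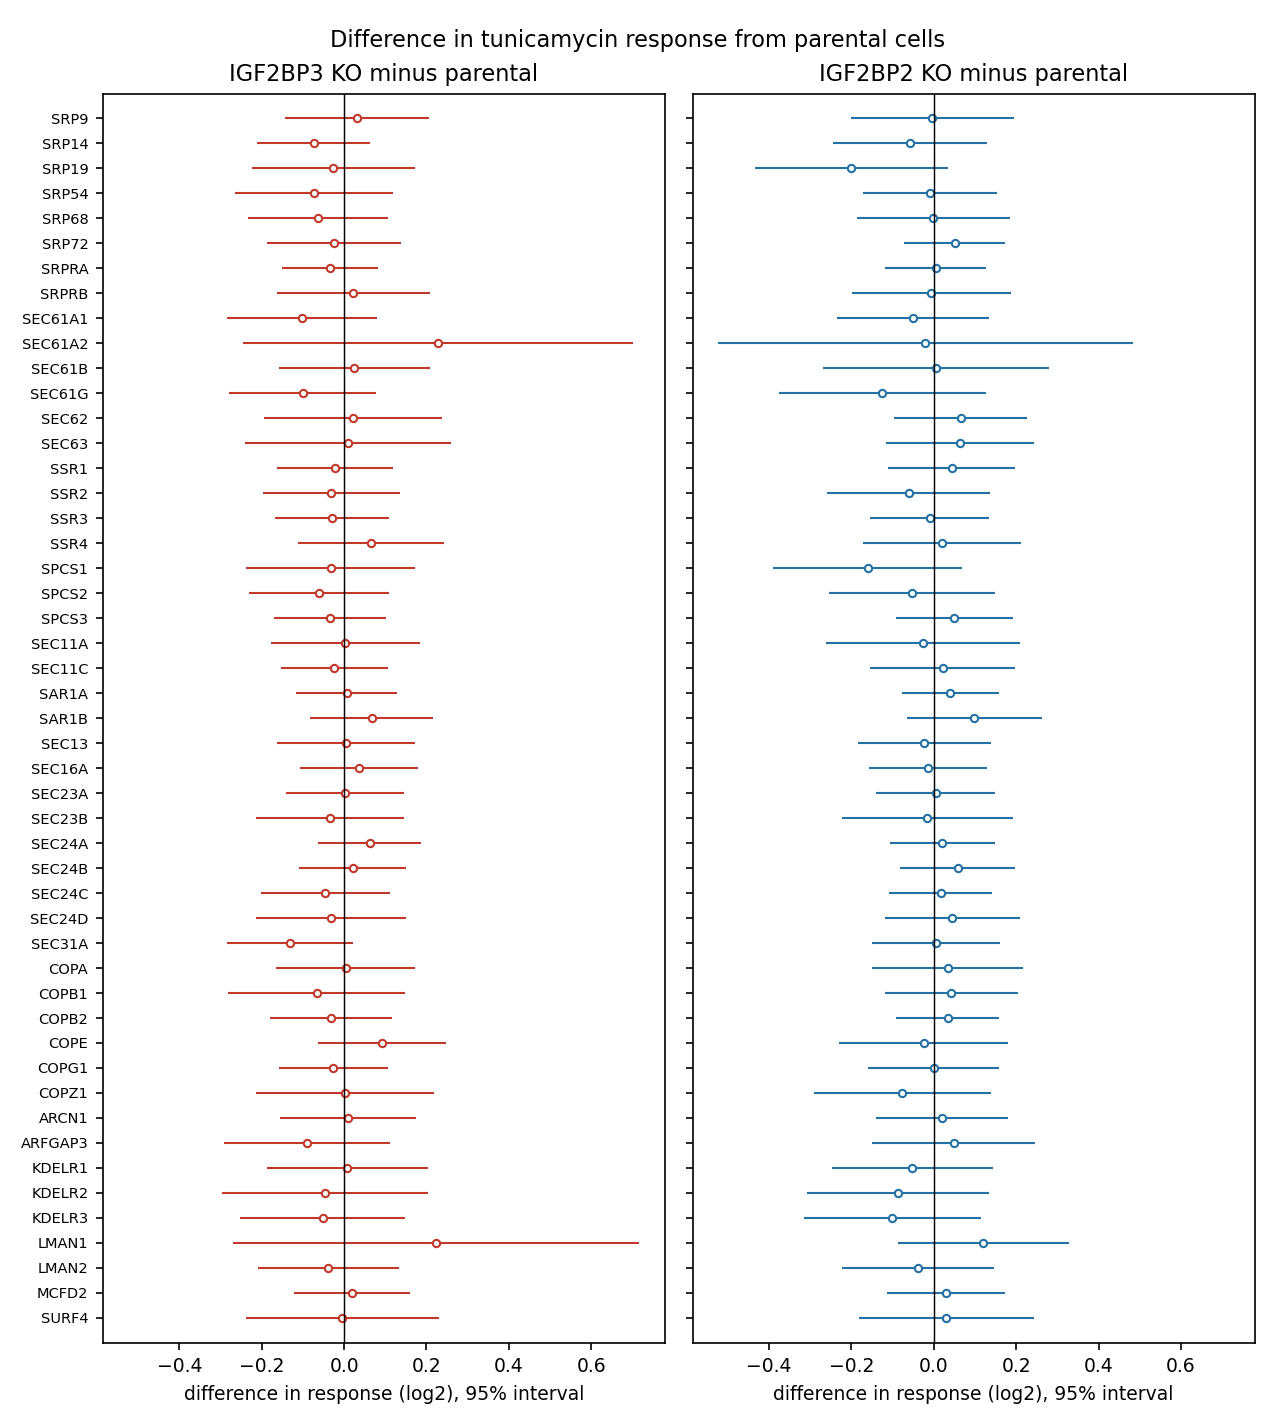
Tunicamycin response of IGF2BP3 KO (left) and IGF2BP2 KO (right) minus that of parental cells (x axis, log2, with 95% intervals) for each of the 49 genes, all open because none was called. Each interval includes 0, and those of SEC61A2 and LMAN1 are the widest in the left panel.

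Levels within 1 treatment were then compared between genotypes, and none of these genes was called. In DMSO 0 of 49 were called in IGF2BP3 KO against parental cells, where 1.61% of all tested genes were called, and in tunicamycin 0 were called against 0.718%. In IGF2BP2 KO 0 were called in DMSO against 0.0137% of all tested genes, and 0 in tunicamycin against 0.00694%. At an unadjusted p under 0.05 the counts were 4, 2, 1 and 1 in that order. The 4 in IGF2BP3 KO in DMSO were SEC61B (-0.17), SEC11A (-0.13), SEC24D (-0.25) and SEC31A (0.17). DESeq2 called 2 of them, SEC24D and SEC31A, and 1 gene in tunicamycin, SEC24D.

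SEC24D was thus close to the threshold in IGF2BP3 KO. By edgeR's quasi-likelihood test it differed from parental cells by -0.25 (adjusted p = 0.0537) in DMSO and by -0.29 (adjusted p = 0.12) in tunicamycin. In DMSO the clones' 36.0 to 44.2 CPM overlapped the parental 43.6 to 52.2 CPM by 1 library of each, and in tunicamycin the clones' 121 to 144 CPM lay below the parental 148 to 178 CPM. A fit that takes the replicate number as a block called it in both, with adjusted p = 0.0247 and 0.0182. SEC31A in DMSO, 0.17 higher, went from an adjusted p of 0.0507 to 0.0275 with that block. The reported fit and the block fit took each library as a unit. With counts summed per line, so that each clone gave 1 value a treatment, neither gene was called in either treatment. In IGF2BP2 KO SEC24D was not called in either treatment. Clones are nested in genotype, and whether a level belongs to the knockout or to the clones chosen was not tested.

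Another 81 genes of the route, none of them among the 49, were counted in the same way. Of the 76 that were tested, 29 rose and 2 fell in parental cells, 30 and 2 in IGF2BP3 KO and 34 and 6 in IGF2BP2 KO, with median log2 fold changes of 0.11, 0.08 and 0.09. Partners of ER exit and COPII had 11 of 23 higher and 1 lower in each genotype, and SNAREs and tethers between ER and Golgi 13, 13 and 15 of 26 higher. COPI partners had 3 of 9 higher in each. The rest of the translocation and membrane insertion machinery had 2, 3 and 5 of 18 higher and 1, 1 and 3 lower, beside 8 of 10 higher for the translocon and TRAP.

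The 5 largest rises on that list were of TMED7, CREB3L2, BET1, STX5 and MIA2. TMED7, a p24 cargo receptor, rose by 1.67, 1.48 and 1.67, and CREB3L2, a transcription factor known to drive SEC23A in cartilage, by 1.49, 1.51 and 1.58. The SNAREs BET1 and STX5, which fuse ER-derived vesicles with the Golgi, rose by 1.23, 1.07 and 1.11 and by 1.05, 1.02 and 1.01. MIA2, which helps load large cargo at ER exit sites, rose by 1.03, 0.84 and 0.90. The 2 that fell were UBL4A, of the tail-anchored protein pathway, with -1.02, -0.82 and -0.86, and ERGIC1, with -0.27, -0.25 and -0.32.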

How the data were processed

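RNA was sequenced with a directional kit per the labels' protocols, and the deposited values are whole-number counts per gene identifier from the authors. The submitters' processing notes name STAR 2.7.5c and hg38; the counting tool, annotation and strand setting are not given in the sources used here. From the counts, edgeR 4.0.16 (R 4.3.3) was run with TMM and filterByExpr, a quasi-likelihood test and Benjamini-Hochberg adjustment over all genes at 0.05. Treatment fits used the libraries of 1 genotype with line as a term, and interaction fits 2 genotypes. Fits of levels between genotypes had no line term and took each library as the unit. DESeq2 1.42.0 was an alternative. CPM on the log2 scale used a prior count of 2. The tests were run on simulated data in which libraries and lines were drawn independently. That check does not cover deviations shared by a replicate number or differences in response between clones.

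All 49 genes, the checks of genotype and stress, and up to 5 other pathway genes each way could be named: those called in parental cells with the largest changes and 1 sign in every line. Some genes sharing exons with a member (GENCODE 29) were named above as limits. Over all members, 17 overlaps had a partner at 10% or more of the member's mean CPM. Those not named above were all on the opposite strand. They were RUVBL1 with SEC61A1, IDH3G with SSR4, GLT8D1 with SPCS1 and NCSTN with COPA. The others were MRPS22 with COPB2, TTC7A with MCFD2, and FOXRED1 and FAM118B with SRPRA. The genes and lists were chosen with earlier results of these data known.

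Libraries with the same replicate number deviated together from their group means (r of 0.0391 to 0.712, median 0.515, above 0.1 in 116 of 120 pairs). The labels do not say what the number marks and not every pair passed 0.1, so it was used as a block only in an alternative. Replicate pairs differed beyond sampling noise (chi-square per degree of freedom 4.59 to 25.2), so none was counted as 1 library.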

Additional observations from a re-analysis of the deposited data

Results flagged for a closer look

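In groups of 4 or 6 libraries, 8 of 294 sets of values had a highest or lowest library set apart from the others by Dixon's criterion, and chance alone marks about 1 in 20. Clone A3 replicate 1 held 3 of them, all highest and all in the SRP receptor: SRPRA in tunicamycin at 180.5 CPM (next 163.5), SRPRB in DMSO at 96.7 CPM (next 85.4) and SRPRB in tunicamycin at 139.1 CPM (next 117.7). SEC63 was highest in parental sample 1 replicate 1 in DMSO at 66.89 CPM (next 60.63). The other 4 were low values in tunicamycin. SEC11C was lowest in parental sample 2 replicate 2 at 50.46 CPM (next 52.29), SSR2 in clone F6 replicate 2 at 66.49 CPM (next 72.16), COPA in clone G6 replicate 2 at 280.6 CPM (next 295.4) and COPE in clone G6 replicate 1 at 40.0 CPM (next 44.62).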

How the results depend on the processing

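No called tunicamycin change and no paralogue difference reversed under any alternative; the uncalled LMAN1 differences from parental cells did change sign without clone D12 (IGF2BP3 KO) or clone G6 (IGF2BP2 KO). Of the members called in tunicamycin, 26 of 37 in parental cells, 30 of 37 in IGF2BP3 KO and 31 of 40 in IGF2BP2 KO were called in every alternative. The counts of higher genes stayed within 1.5 times except where an absolute log2 fold change above 0.5 was also asked, which left 13, 13 and 12 higher and 0, 0 and 0 lower in the 3 genotypes. The few lower genes were less stable. In parental cells (3 lower) DESeq2 gave 1, no filter on low counts gave 0, and leaving out 1 parental sample and replicate number in both treatments gave 0 to 2. In IGF2BP3 KO (4 lower) leaving out any 1 clone gave 2, and in IGF2BP2 KO (4 lower) the fit with no line term gave 2.

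With the replicate block 36 rose and 3 fell in parental cells, 37 and 4 in IGF2BP3 KO and 38 and 4 in IGF2BP2 KO, and the interaction counts were 0. SEC11A and KDELR2 were the genes gained in all 3 genotypes, joined by SEC23A and SEC24C in IGF2BP3 KO. In IGF2BP3 KO against parental cells (0 called in the reported fit), the DMSO count was 2 with the replicate block, with DESeq2, with DESeq2 and the block, and with a mean CPM of at least 1. It was 1 with no filter on low counts, and 0 to 1 when 1 clone or library was left out, the 1 being SEC24D without clone D12. In tunicamycin it was 1 (SEC24D) with the replicate block, DESeq2, DESeq2 and the block, or all 32 libraries in one fit. With counts summed per line none of the genes was called in either treatment. The cause of these shifts was not tested.

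Without the line term LMAN1 was not called in IGF2BP3 KO (0.47, adjusted p = 0.589) or IGF2BP2 KO (0.57, adjusted p = 0.130), as its level differed between clones. SAR1A minus SAR1B passed in replicate 2 libraries alone (-0.05, adjusted p = 0.0339). Depth limits SEC61A2 most, the scarcest of the 49 genes.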

Other observations

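SRP14 had a positive tunicamycin response in both parental samples (0.02 and 0.02 on the log2 scale) and a negative one in all 6 KO clones (-0.08 to -0.02). The interaction tests did not call it, and each value is small beside the spread of its libraries.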
